A study of Mus musculus with 10 samples.

Results

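A set of 10 BCL2 family genes was followed in CD4+ T cells of the mouse spleen, among FoxP3+ and FoxP3- cells and with and without a Satb1 deletion. They comprised Bcl2, Bcl2l1, Mcl1 and Bcl2a1b, which encode proteins that protect the cell, the BH3-only genes Bcl2l11, Bbc3, Pmaip1 and Bid, whose proteins set off cell death, and Bax and Bak1, whose proteins form pores in the mitochondrion. These genes were chosen by symbol from the family, with earlier results of these data known, and they were 10 of the 48321 gene symbols counted. All were present in the 10 count files, as were 16 other BCL2 family genes that served for comparison.

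RNA-seq was done on spleen CD4+ T cells of C57BL/6 mice that carried a FoxP3-Gfp reporter, in which GFP marks cells that express Foxp3. GFP, standing in for FoxP3, and CD25, the IL-2 receptor alpha chain, defined the sort gates. There were 2 libraries in each of 5 groups: FoxP3+CD25+ (Treg) and FoxP3-CD25- (non-Treg) cells of WT mice, the same populations of Satb1 F/F; ThPOK-cre (KO) mice, and, for KO mice only, FoxP3+CD25- cells. The study's methods describe young adult animals of both sexes, and the labels imply, without stating it, that equal numbers within a genotype stand for the same mouse. All groups carried the reporter, and the labels list no further allele for WT mice. The cre is driven by the gene for ThPOK, so Satb1, a chromatin organizer, is targeted only after a thymocyte has been committed to the CD4 lineage, and each population is a sort gate whose purity rests on GFP and CD25.

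BCL2-type survival proteins hold BAX and BAK in check at the mitochondrial outer membrane. BH3-only proteins such as BIM (Bcl2l11), PUMA (Bbc3) and NOXA (Pmaip1) bind the survival proteins, and some also activate BAX and BAK directly, after which the membrane is permeabilized and the cell dies. In T cells, IL-7 and IL-2 support survival in part through Bcl2 and Mcl1, MCL-1 is required for Treg maintenance, and BIM removes cells that have lost cytokine support.

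The files held raw counts of reads per gene, between 6094952 and 12410064 per library with a median of 7721649. Levels are given as CPM, the counts scaled to library size with TMM factors. A gene with no count in a library is below 3 counts, which is 0.248 to 0.496 CPM, and this floor covers counting error only. The libraries of WT replicate 1 stood apart in Xist, a transcript made from the inactive X chromosome of females, with 14487 counts in Treg and 16362 in non-Treg. All other libraries held 0 to 4. Xist thus differed between the mice within the WT groups and not within the KO groups.

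Satb1, the targeted gene, was at 818 and 881 CPM in WT non-Treg (replicates 1 and 2), 379 and 478 in WT Treg, 841 and 682 in KO non-Treg, 1186 and 993 in KO FoxP3+CD25- cells and 598 and 534 in KO Treg. Both KO-labelled Treg libraries lay above both WT Treg libraries, whereas of the KO-labelled non-Treg libraries replicate 1 lay within the WT range and replicate 2 below it. The log2 fold change of KO-labelled against WT cells was 0.40 ± 0.15 (SE) in Treg (adjusted p = 1) and -0.16 ± 0.15 in non-Treg (adjusted p = 0.927). Counts over a whole gene do not resolve which part of it was deleted, so they neither bear out nor contradict the genotype, and the cells are called KO-labelled here.

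The sorted populations were checked for the markers of their labels. All 5 CD4+ T cell markers were detected in every library, with a sum of 2679 to 3434 CPM that was led by Cd4. Foxp3 was at 715 and 618 CPM in WT Treg, 739 and 646 in KO-labelled Treg, 361 and 318 in KO-labelled FoxP3+CD25- cells, and 18.0 to 38.9 in the non-Treg libraries. The sum of 5 Treg markers, of which Ikzf2 had the highest mean, was 3420 and 3010 CPM in WT Treg, 3109 and 2757 in KO-labelled Treg, 677 and 526 in FoxP3+CD25- cells, 354 and 300 in KO-labelled non-Treg and 238 and 169 in WT non-Treg. In FoxP3+CD25- cells Foxp3 itself made up most of this sum, and Ikzf2, at 103 and 74.2 CPM, lay below KO-labelled non-Treg at 129 and 136, Ctla4, at 128 and 46.1, overlapped with 124 and 81.8, and Tnfrsf18, at 68.9 and 71.7, lay above 50.9 and 56.9. In Treg all 3 were higher than in every other library. Foxp3 and Il2ra, which encodes CD25, were sort criteria, so their differences are not findings. Markers of other cells were low: CD8 T cell genes summed to 9.38 to 16.6 CPM, myeloid genes to 17.6 to 25 CPM, NK cell genes to 0.162 to 4.61 CPM and dendritic cell genes to 0.875 to 7.04 CPM. Neutrophil genes reached at most 0.458 CPM and red cell genes at most 1.18 CPM.

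Among the survival genes, Mcl1 had the highest level of the 10 genes once counts were divided by exon length. Its group means lay between 243 ± 23.2 (SD, n = 2) CPM per kb in KO-labelled non-Treg and 288 ± 27.7 in WT Treg. Bcl2 followed in each of the 5 groups, from 29.7 ± 2.44 CPM per kb in KO-labelled non-Treg to 64.2 ± 12 in WT Treg, and Bax came next, at 26.1 to 29.2 CPM per kb. In KO-labelled non-Treg the Bcl2 and Bax means lay within their spread of each other, at 29.7 ± 2.44 and 27.7 ± 3.31 CPM per kb. Bcl2a1b was the lowest of the 10 genes in every group but WT Treg, where Bid was lowest at 6.96 ± 1.12 CPM per kb, close to Bcl2a1b at 7.35 ± 0.648. In the middle of the order, Bbc3, Bcl2l11 and Pmaip1 in WT Treg had means of 12, 11.9 and 11.9 CPM per kb and did not differ beyond their spread.

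**Figure D1:**
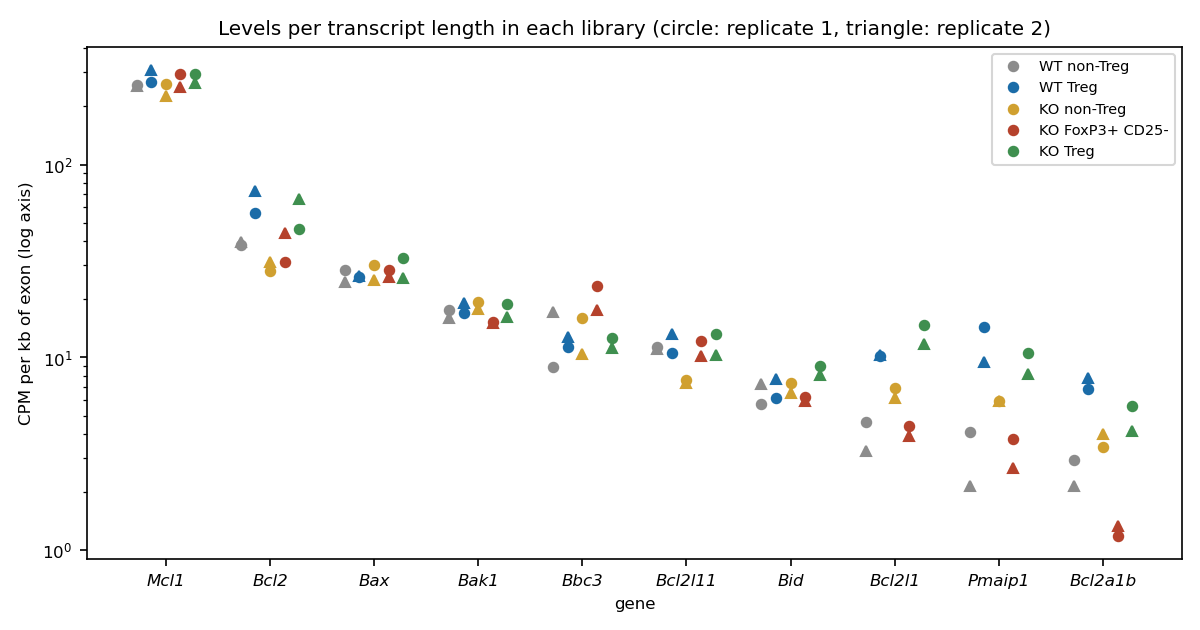
Level of the 10 genes in CPM per kb of exon length on a log axis, by sorted group, with points for libraries. Mcl1 lay highest in every group, between group means of 243 and 288 CPM per kb, and Bcl2 and Bax came next.

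The library values showed which genes moved between populations. Bcl2, which holds BIM and BAX in check, was at 350 and 363 CPM in WT non-Treg, 511 and 666 in WT Treg, 256 and 288 in KO-labelled non-Treg, 285 and 403 in KO-labelled FoxP3+CD25- cells and 424 and 609 in KO-labelled Treg. Every Treg library lay above every other library, and the FoxP3+CD25- libraries spread from the non-Treg range to just below the Treg range. Bcl2l1, which encodes BCL-XL, was at 21.3 and 15 CPM in WT non-Treg, 46.7 and 47.1 in WT Treg, 31.8 and 28.2 in KO-labelled non-Treg, 20.2 and 17.9 in FoxP3+CD25- cells and 67.6 and 54.1 in KO-labelled Treg. The Treg libraries were again the highest, KO-labelled non-Treg lay between, and FoxP3+CD25- cells lay within the range of WT non-Treg. Bcl2a1b, which encodes a copy of the survival protein A1, had few reads, at 2.4 and 1.75 CPM in WT non-Treg, 5.63 and 6.38 in WT Treg, 2.81 and 3.29 in KO-labelled non-Treg, 0.97 and 1.09 in FoxP3+CD25- cells and 4.58 and 3.41 in KO-labelled Treg. These values came from 6 to 54 counts, with FoxP3+CD25- cells lowest and WT Treg highest and no overlap of either with another group. Mcl1 stayed between 776 and 1051 CPM over all 10 libraries.

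Among the BH3-only genes, Pmaip1 was at 11.3 and 5.88 CPM in WT non-Treg, 39.4 and 25.9 in WT Treg, 16.2 and 16.3 in KO-labelled non-Treg, 10.3 and 7.33 in FoxP3+CD25- cells and 29 and 22.5 in KO-labelled Treg. Its order of groups was like that of Bcl2l1, with Treg highest and FoxP3+CD25- cells within the range of WT non-Treg. Bcl2l11, which encodes BIM, was at 90.5 and 88.1 CPM in WT non-Treg, 84.8 and 107 in WT Treg, 61.5 and 59.4 in KO-labelled non-Treg, 97.8 and 81.9 in FoxP3+CD25- cells and 106 and 82.4 in KO-labelled Treg. Here the KO-labelled non-Treg libraries lay below all others, and the other 4 groups overlapped. Bbc3 ranged from 18.9 to 49.6 CPM and was highest in FoxP3+CD25- cells, at 49.6 and 37.3 CPM, just above the highest library of WT non-Treg at 36.8. Bid, which links death receptors to the mitochondrion, ranged from 20.4 to 31.9 CPM. The effector genes varied little, Bax from 38.9 to 51.4 CPM and Bak1 from 36.4 to 46.6 CPM.

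**Figure D2:**
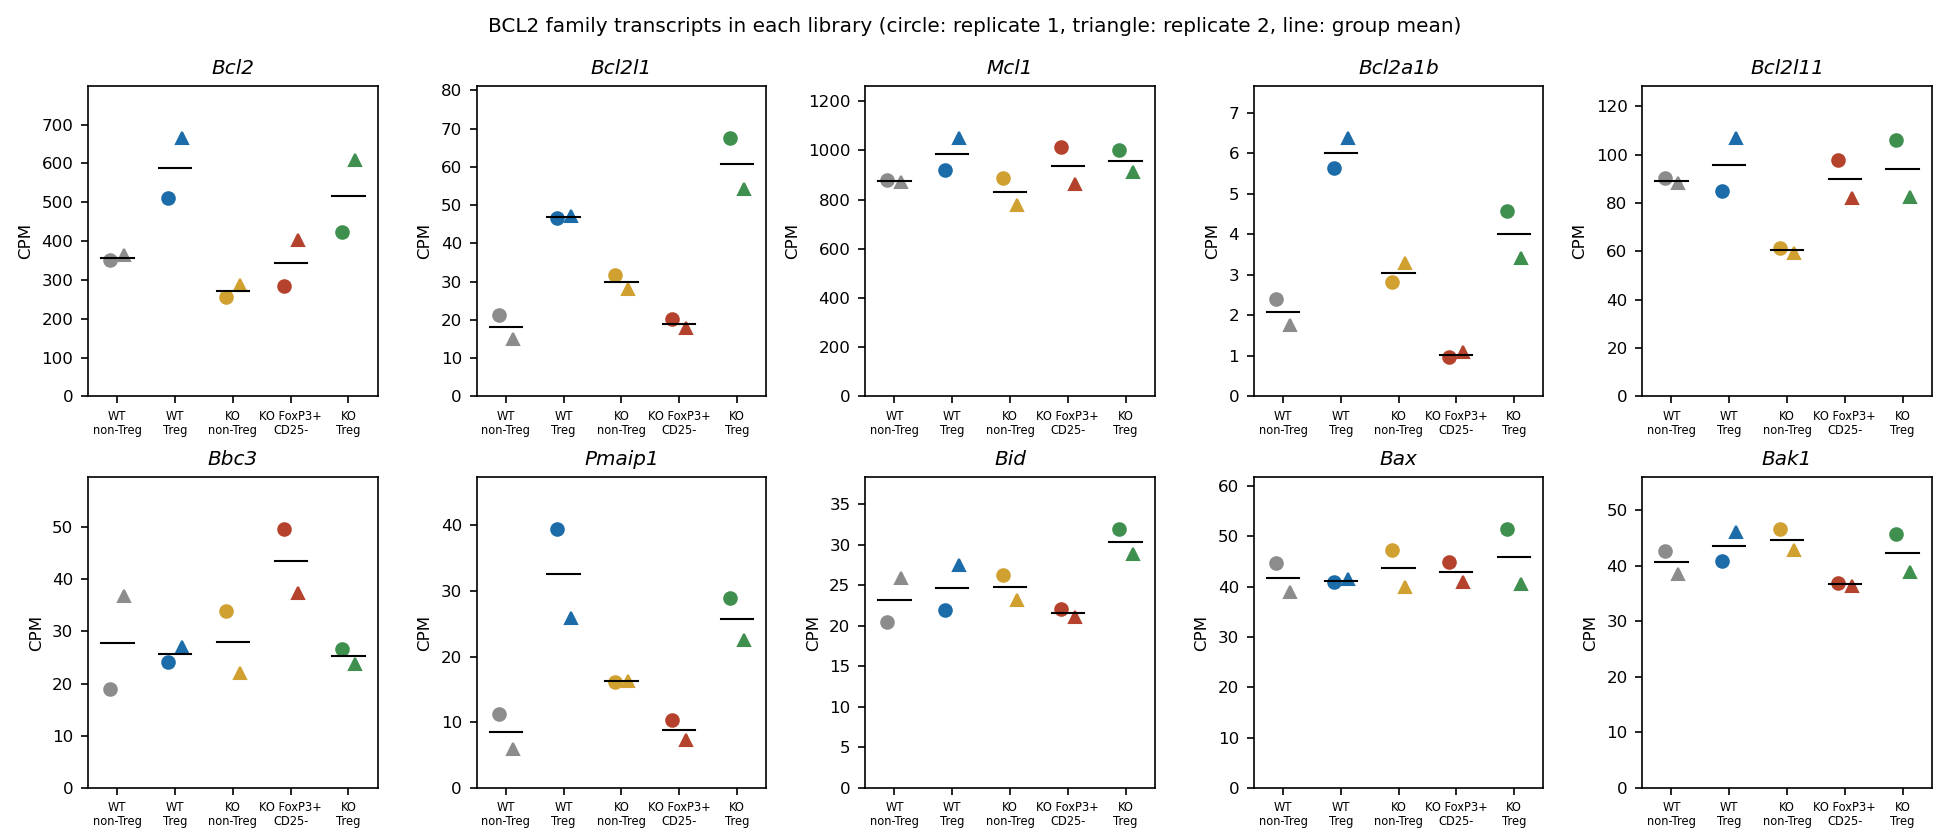
CPM of each of the 10 genes in the 10 libraries, with a panel per gene, points for libraries and the sorted groups on the horizontal axis. For Bcl2, Bcl2l1 and Pmaip1 the 4 Treg libraries were the highest, and for Bcl2l11 the KO-labelled non-Treg libraries were the lowest.

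Some reads of these genes cannot be assigned with certainty, because the library kit does not record strand or because copies are alike. Bcl2 shares 558 bp of exon, 6.09% of its exon length, with the antisense gene D630008O14Rik. Bcl2a1b shares 401 bp, 49.1% of its exon length, with Gm29094 on the same strand, and it has near-identical copies in Bcl2a1a and Bcl2a1d. Bcl2a1d had 3 to 41 counts per library and Bcl2a1a at most 1. Bid shares 628 bp with Bcl2l13, Bax shares 192 bp with Gm45808, and Bak1 shares stretches of 177 and 437 bp with Ggnbp1.

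Promoters are shown for 4 genes called between populations, the survival genes Bcl2, Bcl2l1 and Bcl2a1b and the BH3-only gene Bcl2l11, and that of Pmaip1 was not searched. They are RefSeq sequences of build GRCm38.p6, from 250 bases before to 50 after the start farthest upstream, written 5′ to 3′ on the strand of the gene. These are chr1:106714241-106714540 (minus strand) for Bcl2, chr2:152831679-152831978 (minus strand) for Bcl2l1, chr9:89199023-89199322 (plus strand) for Bcl2a1b and chr2:128125788-128126087 (plus strand) for Bcl2l11. Motifs were searched on both strands, and capitals mark a match to the forkhead motif TGTTTAC, the core bound by FoxO and FoxP3 proteins, here in its reverse complement.
Bcl2: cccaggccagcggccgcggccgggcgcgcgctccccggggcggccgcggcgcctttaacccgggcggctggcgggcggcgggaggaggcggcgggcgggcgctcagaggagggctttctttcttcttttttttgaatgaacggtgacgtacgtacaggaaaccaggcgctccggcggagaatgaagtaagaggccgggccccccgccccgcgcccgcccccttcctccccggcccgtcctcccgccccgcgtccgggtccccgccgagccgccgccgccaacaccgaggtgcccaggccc
Bcl2l1: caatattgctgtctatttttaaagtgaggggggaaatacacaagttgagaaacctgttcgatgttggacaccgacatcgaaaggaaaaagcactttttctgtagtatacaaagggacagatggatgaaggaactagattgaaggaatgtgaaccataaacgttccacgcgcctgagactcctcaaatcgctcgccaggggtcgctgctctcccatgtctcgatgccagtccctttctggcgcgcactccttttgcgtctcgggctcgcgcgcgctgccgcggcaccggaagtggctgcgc
Bcl2a1b: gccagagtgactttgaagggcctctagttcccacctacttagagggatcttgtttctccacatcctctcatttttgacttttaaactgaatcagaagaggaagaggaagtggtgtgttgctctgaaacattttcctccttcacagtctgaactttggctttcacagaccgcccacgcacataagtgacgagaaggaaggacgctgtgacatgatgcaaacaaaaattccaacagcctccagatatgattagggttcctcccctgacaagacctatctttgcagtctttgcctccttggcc
Bcl2l11: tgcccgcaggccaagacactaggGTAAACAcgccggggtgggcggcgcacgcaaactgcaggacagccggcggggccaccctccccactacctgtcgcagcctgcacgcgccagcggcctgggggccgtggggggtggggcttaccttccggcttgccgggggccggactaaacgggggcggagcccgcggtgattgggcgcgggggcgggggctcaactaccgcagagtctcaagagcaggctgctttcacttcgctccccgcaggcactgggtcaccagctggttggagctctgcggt
The forkhead motif was present in 3.65% of 32851 promoters of the same length. It was matched once in the Bcl2l11 window and once in a Bbc3 window, chr7:16310011-16310310. The E-box CACGTG, present in 7.15% of promoters, had 2 matches in the Bax window, chr7:45466849-45467148, and 1 in another Bbc3 window, chr7:16310181-16310480. STAT5 (TTCNNNGAA, 8.3% of promoters), NF-kappaB (GGGANTTTC, 1.11%) and CRE (TGACGTCA, 1.79%) motifs had no match in any of the windows searched. A match says only that these letters are present. The windows differed in base composition, with 76% G or C in the Bcl2 window against 46.7% in that of Bcl2a1b.

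Next, WT Treg were compared with WT non-Treg, to ask which family genes differ between these populations without the deletion. A total of 4 survival or BH3-only genes were higher in Treg and none was lower: Pmaip1 by 3.74-fold, Bcl2a1b by 2.84-fold, Bcl2l1 by 2.57-fold and Bcl2 by 1.65-fold. This is 4 of 10 genes, beside 10.9% of the 13796 genes tested. In a bulk library, more cells of a type and more RNA per cell cannot be told apart. Adjusted p-values come from edgeR's quasi-likelihood test with Benjamini-Hochberg adjustment over all genes tested unless another tool is named, and they measure the spread between these samples, which the labels only imply are separate mice. The log2 fold change was 1.36 ± 0.18 (SE; 95% interval 0.96 to 1.76, adjusted p = 0.000636) for Bcl2l1 and 1.90 ± 0.30 (1.24 to 2.56, adjusted p = 0.00186) for Pmaip1, and both Treg libraries lay above both non-Treg libraries. It was 1.51 ± 0.30 (0.84 to 2.17, adjusted p = 0.00782) for Bcl2a1b and 0.72 ± 0.20 (0.28 to 1.17, adjusted p = 0.0439) for Bcl2, again with every Treg library above. The other 6 genes lay between -0.11 (Bbc3, interval -0.76 to 0.54) and 0.17 (Mcl1, interval -0.11 to 0.45). Of these, Mcl1 also had both Treg libraries above both non-Treg libraries. The median log2 fold change was 0.14 over the 10 genes and -0.02 over all genes tested.

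In this comparison the calls of Bcl2l1 and Pmaip1 were kept under all 16 alternatives run, with adjusted p of 3.3e-09 to 0.0132 and 7.44e-08 to 0.0174. For Bcl2 the call was lost without WT non-Treg replicate 1 (log2 fold change 0.69, adjusted p = 0.211), WT Treg replicate 2 (0.54, adjusted p = 0.151) or WT non-Treg replicate 2 (0.75, adjusted p = 0.179), and over all alternatives its adjusted p was 0.000606 to 0.296. Bcl2a1b lost its call without WT non-Treg replicate 2 (1.32, adjusted p = 0.0746) and with the reads of its copies summed (1.02, adjusted p = 0.0568), a setting chosen after seeing the data, within 0.000292 to 0.103 over its alternatives. The count was 2 of 10 without WT non-Treg replicate 2, beside 5.78% of all genes. It was also 2, beside 5.06%, without both libraries of WT replicate 1, the mouse with Xist, where Bcl2 was at 0.88 (adjusted p = 0.155) and Bcl2a1b at 1.86 (adjusted p = 0.0501). Without WT replicate 2, a setting chosen after seeing the data, the count was 2 as well, beside 10.8%, with Bcl2 at 0.54 (adjusted p = 0.296) and Bcl2a1b at 1.22 (adjusted p = 0.103). With a block for the mouse, 19.1% of genes and 4 members were called.

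Other genes of the death pathways also differed between WT Treg and non-Treg. Birc3, which encodes an inhibitor of apoptosis, was higher in Treg (log2 fold change 0.50, adjusted p = 0.00712). Of 10 death receptor genes, 2 were higher and 2 lower, with Tnfsf10, which encodes the ligand TRAIL, at 1.13 (adjusted p = 0.000234), Fas at 1.04 (adjusted p = 0.000807) and its ligand gene Fasl at -1.29 (adjusted p = 0.00742). Of 9 cytokine receptor and signalling genes, 4 were higher and 1 lower. Il2rb, which encodes the IL-2 receptor beta chain, was at 2.83 (adjusted p = 3.06e-05), Il7r at -1.53 (adjusted p = 0.000305) and the sort gene Il2ra at 8.06. None of 13 upstream regulators and protein turnover genes was called, with a median of 0.09. Of the 16 other BCL2 family genes, 11 passed the filter on low counts, and Bcl2l14 (1.88, adjusted p = 0.0284) and Bcl2l15 (2.61, adjusted p = 0.0391) were called higher from 4 to 19 and 1 to 13 counts per library. Both genes reached the filter's minimum count of 10 in the WT Treg libraries and in neither WT non-Treg library. The filter thus kept genes of this level where they were higher in Treg, and no conclusion is drawn from these calls.

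Several of these pathway calls in WT cells rested on single libraries. Birc3 lost its call without WT non-Treg replicate 1 (log2 fold change 0.44, adjusted p = 0.0851, with 0.000734 to 0.0851 over its alternatives). Fasl lost it without WT Treg replicate 1 (-1.17, adjusted p = 0.0563) or WT non-Treg replicate 1 (-1.13, adjusted p = 0.0681), within 0.000143 to 0.203. Bcl2l14 lost it without WT non-Treg replicate 1 (2.15, adjusted p = 0.11), WT Treg replicate 2 (1.59, adjusted p = 0.11) or WT non-Treg replicate 2 (1.69, adjusted p = 0.162), and with DESeq2 (1.93, adjusted p = 0.157), within 0.00647 to 0.251. Bcl2l15 lost it without WT Treg replicate 1 (2.43, adjusted p = 0.169), WT non-Treg replicate 1 (3.63, adjusted p = 0.102), WT Treg replicate 2 (2.79, adjusted p = 0.052) or WT non-Treg replicate 2 (2.1, adjusted p = 0.223), and with DESeq2 (2.74, adjusted p = 0.157), within 0.00653 to 0.229.

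Markers in this comparison were as follows. The proliferation genes Mki67 and Top2a were detected in every library, with Mki67 the higher on average. Their sum was 84.1 and 31.9 CPM in WT Treg against 46.6 and 30.5 in WT non-Treg, so the ranges overlapped. It was higher in replicate 1 in each of the 5 groups. Neither Mki67 (log2 fold change 0.67, adjusted p = 0.609) nor Top2a (0.47, adjusted p = 0.643) was called. Of 4 B cell markers, Cd79b had the highest mean, and the sum was 20.3 and 17.6 CPM in WT Treg against 3.56 and 1.65 in WT non-Treg, with 1 and 2 of the markers at 0 in the Treg libraries. Ccr7 (log2 fold change -0.81, adjusted p = 0.0017) and S1pr1 (-0.89, adjusted p = 0.00144), which are expressed in naive T cells, were lower in WT Treg, and the dendritic cell marker Zbtb46 was higher (2.25, adjusted p = 0.00668), at 7.04 and 3.66 CPM against 0.828 and 1.44. Of the other dendritic cell markers, Flt3 had no count in any WT library and Itgax none in WT Treg. NK cell markers, of which Klrb1c had the highest mean, summed to 0.64 and 0.709 CPM in WT Treg and 1.74 and 2.06 in WT non-Treg, with at most 1 of 3 at 0. Klrb1c was not called (log2 fold change -1.97, adjusted p = 0.2). The part of these markers in the results was not tested. Stress genes, led by Jun, summed to 1116 and 1555 CPM in WT Treg and 1157 and 1038 in WT non-Treg, so their ranges overlapped.

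The same populations were then compared in the KO-labelled mice. Bcl2, Bcl2l1 and Bcl2l11 were higher in KO-labelled Treg than in KO-labelled non-Treg, by 1.90-fold, 2.03-fold and 1.55-fold. This is 3 of 10 genes, with none lower, beside 6.34% of all genes tested. The log2 fold change was 0.92 ± 0.20 (SE; 95% interval 0.47 to 1.37, adjusted p = 0.0214) for Bcl2 and 1.02 ± 0.18 (0.63 to 1.42, adjusted p = 0.00623) for Bcl2l1, and that of Bcl2l11 was 0.64 ± 0.16 (0.29 to 0.98, adjusted p = 0.0347). For each of these genes both Treg libraries lay above both non-Treg libraries. The same held for Mcl1, Pmaip1, Bcl2a1b and Bid, which were not called, so separation is not particular to the called genes. Pmaip1 was at 0.66 (interval -0.01 to 1.32, adjusted p = 0.319) and Bcl2a1b at 0.36 (interval -0.39 to 1.11, adjusted p = 0.725), which turned to -0.30 (adjusted p = 0.769, within 0.615 to 0.999) with the reads of its copies summed, a setting chosen after seeing the data. The other 5 genes lay between -0.14 (Bbc3) and 0.30 (Bid). The median was 0.33 over the 10 genes and 0 over all genes tested.

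With a block for the mouse, 12% of all genes and 4 of the 10 were called between these KO-labelled populations, because Pmaip1 passed as well (0.64, adjusted p = 0.0267, within 0.0267 to 0.999 over its alternatives). The calls also depended on single libraries. Without KO-labelled Treg replicate 1 the count was 1, beside 2.92% of all genes, with Bcl2l1 at 0.85 (adjusted p = 0.0665) and Bcl2l11 at 0.45 (adjusted p = 0.288). Without KO-labelled non-Treg replicate 1 it was 1, beside 3.04%, with Bcl2 at 0.84 (adjusted p = 0.158) and Bcl2l11 at 0.66 (adjusted p = 0.158). Without KO-labelled non-Treg replicate 2 it was 0 by edgeR, beside 2.96%, with Bcl2 at 1.01 (adjusted p = 0.0876), Bcl2l1 at 0.94 (adjusted p = 0.07) and Bcl2l11 at 0.61 (adjusted p = 0.201). Without KO-labelled Treg replicate 2, Bcl2 was at 0.64 (adjusted p = 0.21). Over all alternatives the adjusted p was 0.000101 to 0.305 for Bcl2, 3.34e-05 to 0.264 for Bcl2l1 and 0.00394 to 0.648 for Bcl2l11.

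**Figure D3:**
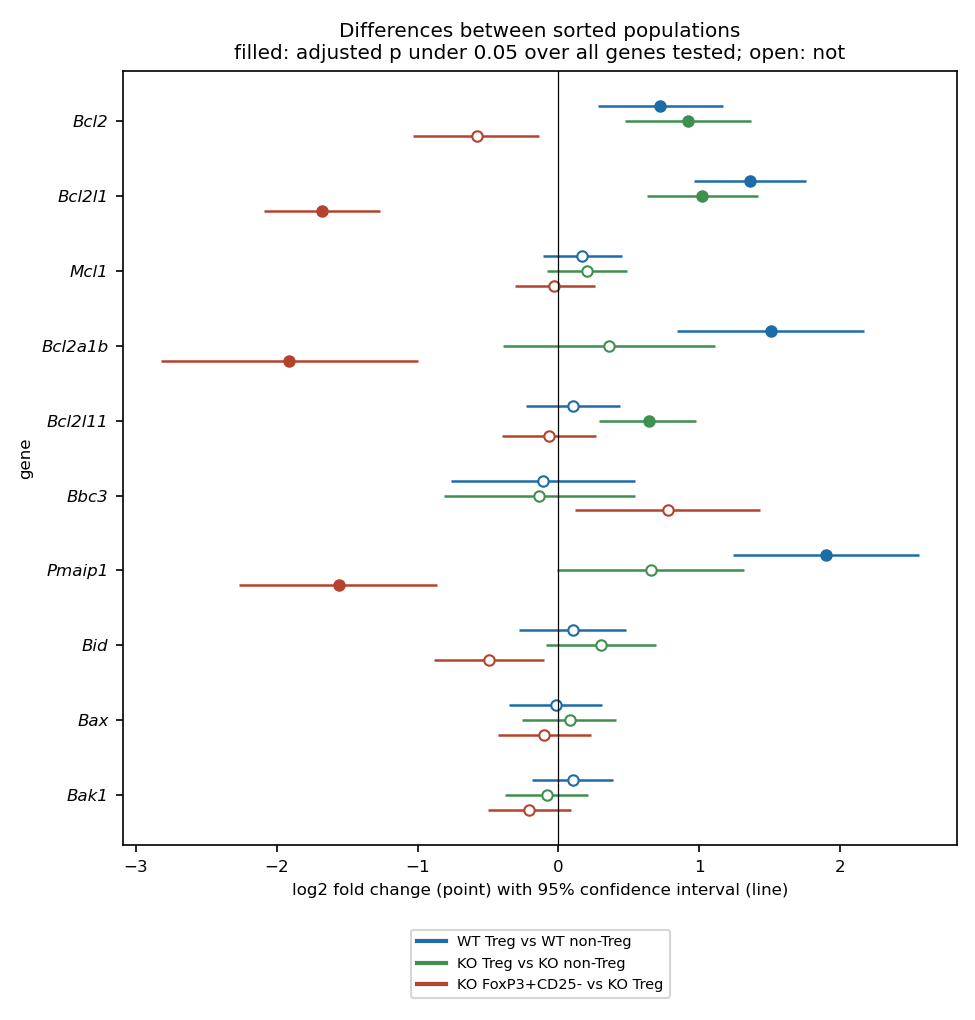
Log2 fold change between sorted populations for the 10 genes, with points for estimates, lines for 95% confidence intervals and filled points for an adjusted p under 0.05. Bcl2l1 was called in WT Treg against non-Treg (1.36), in KO-labelled Treg against non-Treg (1.02) and in KO-labelled FoxP3+CD25- cells against Treg (-1.68).

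Whether the difference between Treg and non-Treg itself differed between the genotype labels was tested as an interaction. No gene at all was called by edgeR's quasi-likelihood test (0%), with 685 genes at an unadjusted p under 0.05, against 25 called by DESeq2 and 32 by the likelihood ratio test. None of the 10 genes was called by any of the 3 tests, and 3 of the 10 had an unadjusted p under 0.05. These were Pmaip1, whose log2 difference in KO-labelled cells minus that in WT cells was -1.24 ± 0.42 (adjusted p = 0.827), Bcl2a1b (-1.14 ± 0.46, adjusted p = 0.951) and Bcl2l11 (0.53 ± 0.22, adjusted p = 0.96). With a block for the mouse, 1.08% of all genes were called, and 1 of the 10, Pmaip1 (-1.30, adjusted p = 0.0299, within 0.0299 to 1 over its alternatives). The calls of Pmaip1 and Bcl2a1b in WT cells and that of Bcl2l11 in KO-labelled cells are therefore not shown to be particular to a genotype by the unblocked test.

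In the KO-labelled comparison, pathway genes outside the family were called as follows. Birc3 was higher in Treg (log2 fold change 0.63, adjusted p = 0.00356). Of the 10 death receptor genes, 3 were higher and 1 lower, with Tnfsf10 at 1.72 (adjusted p = 3.99e-05), Fas at 0.85 (adjusted p = 0.00586) and Fasl at -1.48 (adjusted p = 0.00973). Of the 9 cytokine receptor and signalling genes, 3 were higher and 1 lower, with Il2rb at 1.83 (adjusted p = 0.000657), Il7r at -1.23 (adjusted p = 0.00222) and the sort gene Il2ra at 6.31. None of 11 other family genes and none of 13 upstream regulators was called by edgeR's quasi-likelihood test. Bcl2l14 (1.79, adjusted p = 0.0653) was called in 2 of 16 alternatives, with the likelihood ratio test and with a block for the mouse, within 0.0232 to 0.747. Birc3 lost its call without KO-labelled non-Treg replicate 1 (0.57, adjusted p = 0.055, within 0.000207 to 0.277). Fas lost it without KO-labelled non-Treg replicate 1 (0.86, adjusted p = 0.0519), KO-labelled Treg replicate 2 (0.79, adjusted p = 0.0641) or KO-labelled non-Treg replicate 2 (0.85, adjusted p = 0.054), within 9.77e-05 to 0.315, and Fasl without KO-labelled non-Treg replicate 1 (-1.24, adjusted p = 0.0801) or KO-labelled Treg replicate 2 (-1.35, adjusted p = 0.105), within 4.7e-05 to 0.253. Without all libraries of a KO-labelled mouse, a setting chosen after seeing the data, Birc3, Fas and Fasl lost their calls too, Il7r lost it without replicate 1 (-1.30, adjusted p = 0.0991) or 2 (-1.17, adjusted p = 0.139), within 4.67e-10 to 0.139, and Il2rb without replicate 1 (1.59, adjusted p = 0.0629), within 7.98e-17 to 0.0629.

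Markers between the KO-labelled populations were as follows. The proliferation sum was 82.7 and 28.4 CPM in Treg and 141 and 74.7 in non-Treg, lower in Treg within each replicate. The B cell marker sum, led by Cd79b, was 18 and 16.2 CPM in Treg and 6.62 and 5.14 in non-Treg, with 0 and 2 of 4 markers at 0 in the Treg libraries. Stress genes summed to 1047 and 1540 CPM in Treg and 834 and 1075 in non-Treg, higher in Treg within each replicate, with Jun at a log2 fold change of 0.56 (adjusted p = 0.187). S1pr1 was lower in Treg (log2 fold change -0.59, adjusted p = 0.025), and Ccr7 was at -0.37 (adjusted p = 0.135). The myeloid marker Itgam was lower in Treg (-1.75, adjusted p = 0.0206), at 1.98 and 1.44 CPM against 6.29 and 5.27, while the sums of the 4 myeloid markers overlapped. NK cell markers summed to 1.22 and 1.18 CPM in Treg and 3.31 and 4.61 in non-Treg, and dendritic cell markers to 3.66 and 3.01 against 1.82 and 0.922. The part of these markers was not tested.

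The FoxP3+CD25- cells of KO-labelled mice express Foxp3 without CD25 at the surface. Against KO-labelled Treg, they had lower Bcl2l1, Pmaip1 and Bcl2a1b, with levels 0.313, 0.338 and 0.266 times those of Treg. This is 3 of 10 genes, with none higher, beside 7.02% of all genes tested. The log2 fold change was -1.68 ± 0.19 (SE; 95% interval -2.09 to -1.27, adjusted p = 0.000383) for Bcl2l1, -1.56 ± 0.32 (-2.27 to -0.86, adjusted p = 0.0131) for Pmaip1 and -1.91 ± 0.41 (-2.82 to -1.0, adjusted p = 0.0173) for Bcl2a1b. Both FoxP3+CD25- libraries lay below both Treg libraries in each case. This also held for Bcl2, Bak1 and Bid, which were not called, and Bbc3, not called either, lay above without overlap. Bcl2 (-0.58, adjusted p = 0.134), Bid (-0.49, adjusted p = 0.148) and Bbc3 (0.78, adjusted p = 0.173) had an unadjusted p under 0.05 without passing the adjusted threshold. With the called genes, 6 of the 10 were under this unadjusted threshold, beside 2609 of the 13796 genes tested. Bcl2l11, Mcl1, Bax and Bak1 lay between -0.21 and -0.03. The median was -0.35 over the 10 genes and 0 over all genes tested.

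In this comparison with KO-labelled Treg, the call of Bcl2l1 was kept under all 16 alternatives, with a log2 fold change of -1.83 to -1.51 and an adjusted p of 6.73e-13 to 0.0421. Without KO-labelled Treg replicate 1 the count was 1, beside 3.36% of all genes, with Pmaip1 at -1.37 (adjusted p = 0.0943) and Bcl2a1b at -1.69 (adjusted p = 0.131). Without KO-labelled FoxP3+CD25- replicate 2 it was 1 as well, beside 2.86%, with Pmaip1 at -1.31 (adjusted p = 0.133) and Bcl2a1b at -2.01 (adjusted p = 0.132), and without KO-labelled FoxP3+CD25- replicate 1 Bcl2a1b was at -1.84 (adjusted p = 0.102). The adjusted p over all alternatives was 8.85e-05 to 0.317 for Pmaip1 and 0.000506 to 0.47 for Bcl2a1b. With a block for the mouse, 15.1% of all genes and 6 of the 10 were called. Bcl2 (-0.58, adjusted p = 0.00344, within 0.00344 to 0.64), Bbc3 (0.77, adjusted p = 0.0148, within 0.0148 to 0.822) and Bid (-0.48, adjusted p = 0.0239, within 0.0239 to 0.824) were then added. Of these, Bcl2 was called in 4 of 16 alternatives, also with no filter (adjusted p = 0.0455), with DESeq2 (adjusted p = 0.0389) and with a block for the replicate number (adjusted p = 0.0103), and Bbc3 in 2, also with only the groups compared (adjusted p = 0.0398).

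Pathway genes separated FoxP3+CD25- cells from KO-labelled Treg too. Of 10 death receptor genes, 2 were lower and 2 higher, with Tnfsf10 at a log2 fold change of -1.60 (adjusted p = 7.1e-05), Fas at -1.11 (adjusted p = 0.0012) and Fasl at 1.61 (adjusted p = 0.0049). Of 9 cytokine receptor and signalling genes, 2 were lower and 2 higher, with Il2rb at -2.76 (adjusted p = 7.26e-05), Il7r at 1.50 (adjusted p = 0.000615) and the sort gene Il2ra at -5.28. None of 11 other family genes and none of 13 upstream regulators was called by edgeR's quasi-likelihood test. Fasl lost its call without KO-labelled Treg replicate 2 (1.48, adjusted p = 0.0548, within 4.01e-06 to 0.145) and without either KO-labelled mouse, a setting chosen after seeing the data. Without KO-labelled replicate 2, Fas (-0.92, adjusted p = 0.189, within 9.37e-08 to 0.189) and Il7r (1.44, adjusted p = 0.0708, within 3.07e-15 to 0.0708) lost theirs. Proliferation genes summed to 30.1 and 15.3 CPM in FoxP3+CD25- cells and 82.7 and 28.4 in Treg, and B cell markers to 5.66 and 3.61 against 18 and 16.2, with 2 of 4 markers at 0 in both FoxP3+CD25- libraries. NK cell markers summed to 0.162 and 0.766 CPM against 1.22 and 1.18, and dendritic cell markers to 1.78 and 0.875 against 3.66 and 3.01. S1pr1 was higher in FoxP3+CD25- cells (0.87, adjusted p = 0.00262). Their part in the results was not tested.

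**Figure D4:**
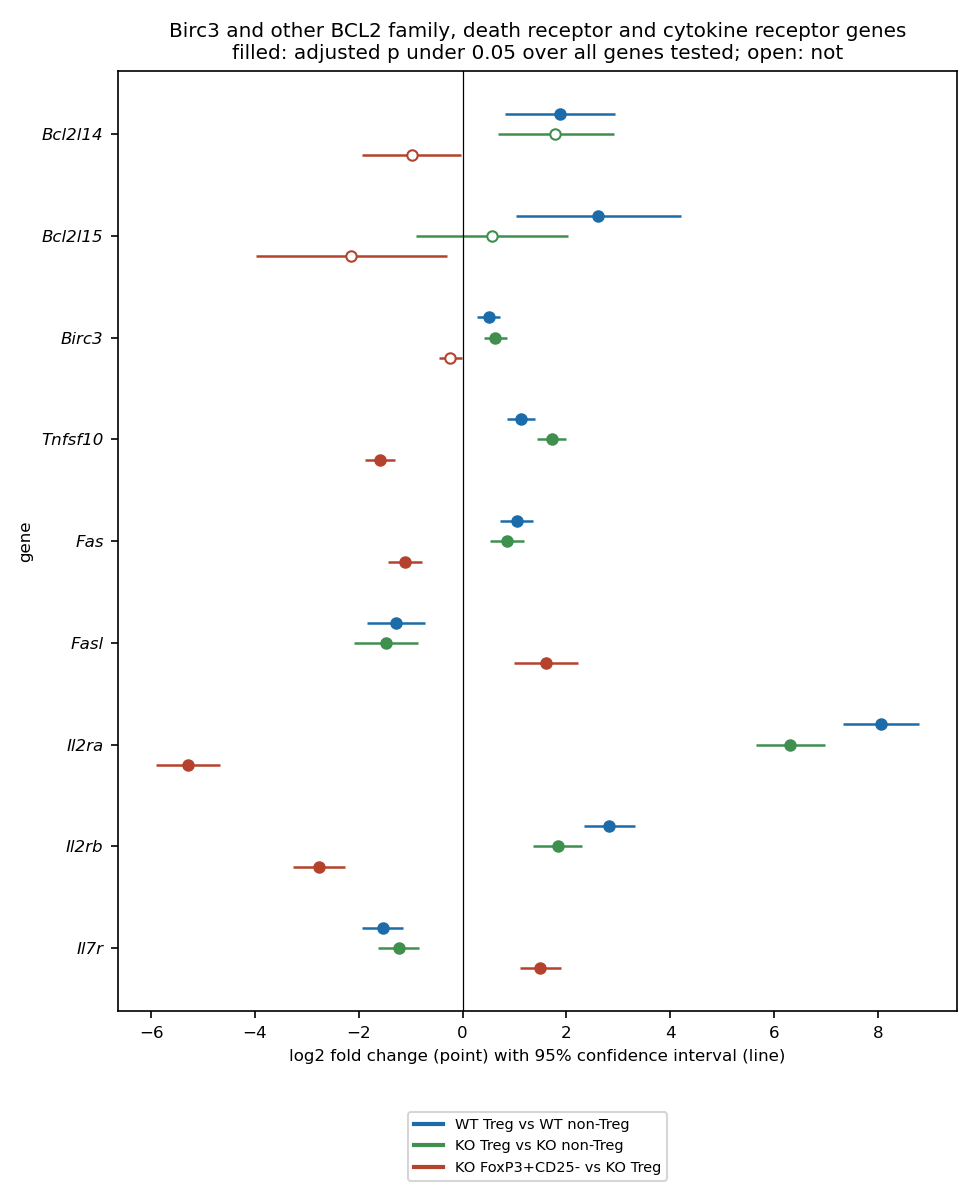
Log2 fold change of Birc3 and of other BCL2 family, death receptor and cytokine receptor genes between sorted populations, with lines for 95% confidence intervals and filled points for an adjusted p under 0.05. Tnfsf10 was at 1.13 in WT Treg against non-Treg, 1.72 in KO-labelled Treg against non-Treg and -1.60 in FoxP3+CD25- cells against KO-labelled Treg.

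Against KO-labelled non-Treg, none of the 10 genes was called in FoxP3+CD25- cells by edgeR's quasi-likelihood test, beside 1.67% of all genes tested. DESeq2 also called none, and the likelihood ratio test called 2. An unadjusted p under 0.05 by the quasi-likelihood test was found for 1381 of the 13796 genes tested and for 4 of the 10. These were Bcl2a1b (log2 fold change -1.55 ± 0.44, adjusted p = 0.136), Pmaip1 (-0.91 ± 0.33, adjusted p = 0.321), Bcl2l1 (-0.65 ± 0.19, adjusted p = 0.152) and Bcl2l11 (0.57 ± 0.16, adjusted p = 0.121). For each of them the libraries of the groups did not overlap, and neither did those of Bbc3, Bak1 and Bid. Separation therefore does not mark out the 4 genes, and its share over all genes was not counted. With a block for the mouse, 5.7% of all genes were called and 3 of the 10: Bcl2l11 (0.56, adjusted p = 0.0145), Pmaip1 (-0.91, adjusted p = 0.0169) and Bcl2l1 (-0.65, adjusted p = 0.0277). Over their alternatives the adjusted p was 0.0145 to 1, 0.0169 to 1 and 0.0277 to 1. The likelihood ratio test called Bcl2a1b (adjusted p = 0.0309) and Bcl2l11 (adjusted p = 0.0461), and the reads of the Bcl2a1 copies summed gave -2.14 (adjusted p = 0.0273, within 0.0273 to 1 for Bcl2a1b). Birc3 (0.39, adjusted p = 0.0981) was not called by edgeR's quasi-likelihood test here, but was called in 2 of 16 alternatives. None of the other BCL2 family, death receptor, upstream regulator and cytokine receptor genes was called by that test. Of these, Il2rb (-0.93, adjusted p = 0.0668) was called in 6 of 16 alternatives, DESeq2 and the likelihood ratio test among them, within 0.000618 to 1, and the sort gene Il2ra (1.03, adjusted p = 0.165) in 3 of 16, within 0.0207 to 1. The proliferation sum, 30.1 and 15.3 CPM against 141 and 74.7, was lower in FoxP3+CD25- cells without overlap. So was the NK cell sum, 0.162 and 0.766 against 3.31 and 4.61, and their part was not tested. The sums of B cell, CD8 T cell, myeloid, dendritic cell and stress genes overlapped.

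The study sets the FoxP3+CD25- cells against WT non-Treg, where genotype and population differ together. None of the 10 genes was called by edgeR's quasi-likelihood test, by DESeq2 or by the likelihood ratio test, beside 0.768% of all genes tested. An unadjusted p under 0.05 was found for 1214 of the 13796 genes tested and for 2 of the 10. Bbc3 was at a log2 fold change of 0.64 ± 0.29 (adjusted p = 0.561) and Bcl2a1b at -1.0 ± 0.44 (adjusted p = 0.538). Bcl2, Bcl2l1, Bcl2l11, Mcl1, Pmaip1, Bax, Bak1 and Bid lay between -0.15 and 0.10. The intervals of Bcl2l1 (-0.36 to 0.48) and Pmaip1 (-0.75 to 0.74) did not reach the differences between WT Treg and WT non-Treg, 1.36 and 1.90. Of the other BCL2 family, death receptor, upstream regulator and cytokine receptor genes, Il2ra alone was called (2.66, adjusted p = 0.00507), at 16.8 and 16.7 CPM against 3.56 and 1.55, although both populations were sorted as CD25-. It lost its call without the 3 libraries of KO replicate 1 (2.68, adjusted p = 0.062, within 1.22e-13 to 0.062), a setting chosen after seeing the data.

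The effect of the genotype label within a population was compared last. In Treg, none of the 10 genes was called by edgeR's quasi-likelihood test, by DESeq2 or by the likelihood ratio test. None had an unadjusted p under 0.05, beside 593 of the 13796 genes tested. The background was low as well, with 0.00725% of all genes called, a single gene, against 5 genes by DESeq2 and 11 by the likelihood ratio test. Bcl2l1 lay at a log2 fold change of 0.37 (95% interval -0.01 to 0.75, adjusted p = 1), Bcl2a1b at -0.60 (-1.25 to 0.05, adjusted p = 1) and Bcl2 at -0.19 (-0.63 to 0.26, adjusted p = 1). The intervals of Mcl1 (-0.33 to 0.24) and Bak1 (-0.33 to 0.25) bounded the difference most closely. None of the other BCL2 family, death receptor, upstream regulator and cytokine receptor genes was called by edgeR's quasi-likelihood test.

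In non-Treg, none of the 10 genes was called between the genotype labels by edgeR's quasi-likelihood test, by DESeq2 or by the likelihood ratio test, beside 0.145% of all genes tested. DESeq2 gave no adjusted p for Bcl2a1b. An unadjusted p under 0.05 was found for 1106 of the 13796 genes tested and for 3 of the 10. These were Bcl2l1 at a log2 fold change of 0.71 ± 0.19 (95% interval 0.30 to 1.13, adjusted p = 0.237), Bcl2l11 at -0.56 ± 0.15 (-0.90 to -0.22, adjusted p = 0.257) and Pmaip1 at 0.90 ± 0.32 (0.20 to 1.61, adjusted p = 0.447). In all 3 the libraries of the groups did not overlap, and neither did those of Bak1 (0.14) or Bcl2a1b (0.54). With 2 libraries against 2, the smallest p of an exact permutation test is 0.333, so separation alone does not set a gene apart. Its share over all genes was not counted. Bcl2, at -0.39 (-0.84 to 0.06, adjusted p = 0.696), was also lower in both KO-labelled libraries than in both WT libraries. None of the other BCL2 family, death receptor, upstream regulator and cytokine receptor genes was called by edgeR's quasi-likelihood test. Of these, Il2rb (1.02, adjusted p = 0.143) was called in 4 of 17 alternatives, within 0.000321 to 0.643, and the sort gene Il2ra (1.63, adjusted p = 0.18) in 3 of 17, within 0.000535 to 1, both by DESeq2 and by the likelihood ratio test. The proliferation sum was 141 and 74.7 CPM in KO-labelled against 46.6 and 30.5 in WT non-Treg. The B cell sum was 6.62 and 5.14 against 3.56 and 1.65, and the NK cell sum 3.31 and 4.61 against 1.74 and 2.06. The Treg marker sum, which includes the sort genes, was 354 and 300 against 238 and 169. All of these sums were higher in KO-labelled cells without overlap, as was the CD4+ T cell sum. The sums of CD8 T cell, myeloid, dendritic cell and stress genes overlapped. Of the Treg markers, Ikzf2 was at a log2 fold change of 1.05 (adjusted p = 0.0806), while Ctla4 overlapped. The part of these markers was not tested. These comparisons share libraries with those above, so their values are not independent of them.

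**Figure D5:**
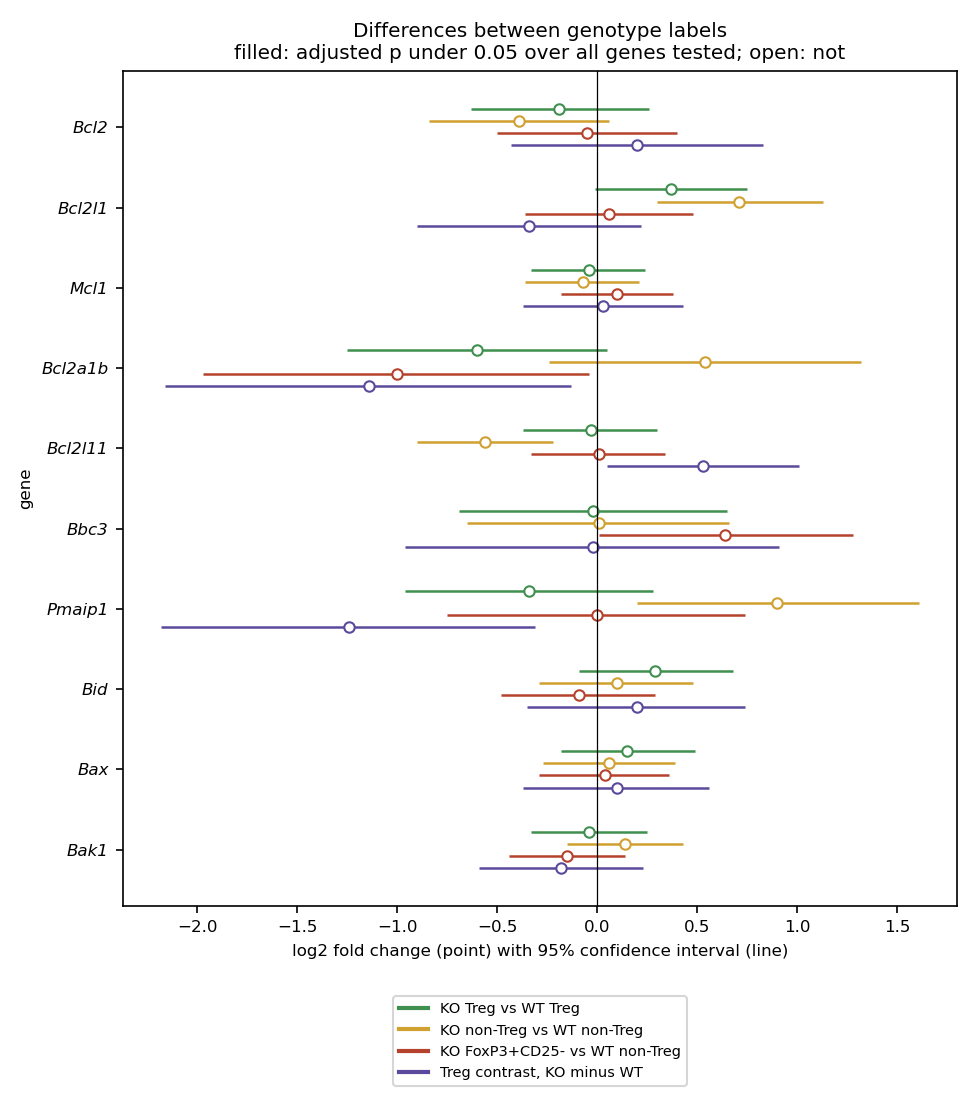
Log2 fold change between genotype labels for the 10 genes within Treg and non-Treg, for KO-labelled FoxP3+CD25- cells against WT non-Treg, and for the difference of the Treg contrasts, with lines for 95% confidence intervals. All points are open, which means an adjusted p of 0.05 or more, and those farthest from 0 within non-Treg were Pmaip1 (0.90), Bcl2l1 (0.71) and Bcl2l11 (-0.56).

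The ratio of survival to BH3-only transcripts was described per library, with no test, on the scale of CPM per kb. Bcl2 to Bcl2l11 was 3.39 and 3.62 in WT non-Treg, 5.28 and 5.46 in WT Treg, 3.65 and 4.25 in KO-labelled non-Treg, 2.55 and 4.32 in FoxP3+CD25- cells and 3.52 and 6.48 in KO-labelled Treg. WT Treg lay above WT non-Treg, and the KO-labelled groups overlapped. Bcl2l1 to Bcl2l11 was 0.412 and 0.297 in WT non-Treg, 0.964 and 0.771 in WT Treg, 0.904 and 0.831 in KO-labelled non-Treg, 0.362 and 0.383 in FoxP3+CD25- cells and 1.12 and 1.15 in KO-labelled Treg. KO-labelled non-Treg thus lay with WT Treg in this ratio and FoxP3+CD25- cells with WT non-Treg. Mcl1 to Bcl2l11 was 33.9 and 30.7 in KO-labelled non-Treg and 22.3 to 25.9 in the other libraries.

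Across the 10 libraries, which share mice, groups and scaling, some of the genes varied together. Pearson's r of log2 CPM was 0.93 for Bcl2l1 and Pmaip1, 0.88 for Pmaip1 and Bcl2a1b, 0.83 for Bcl2l1 and Bcl2a1b and 0.82 for Bcl2l11 and Mcl1. The lowest was -0.67, for Bbc3 and Bcl2a1b. Of genes outside the family, those most like Bcl2 over the 10 libraries were D630008O14Rik (0.985), Gm15440 (0.961) and Ppm1m (0.956), and reads of the antisense D630008O14Rik and of Bcl2 cannot be told apart where they overlap. Those most like Bcl2l11 were Klhdc4 (0.93), Trit1 (0.891) and Filip1l (0.871), and those most like Mcl1 were Fbxl22 (0.925), Zc3h15 (0.907) and Igsf23 (0.903). Over the 5 group means they were Rnf24 (0.999), Ston1 (0.999) and Fam89a (0.998) for Bcl2, Cnr2 (0.998), Tatdn3 (0.993) and Ube2cbp (0.993) for Bcl2l11, and Trbv30 (0.999), Zbtb10 (0.999) and Atr (0.998) for Mcl1. With so few points and 13796 genes searched, such values are a description only.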

How the data were processed

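Spleen CD4+ T cells sorted by a FoxP3-Gfp reporter and CD25 were analysed as 10 libraries in 5 groups of 2. The deposited raw counts per gene symbol were made by the authors with HISAT2 (version 2.1.0) on mm10 and HTSeq (version 0.11.1) from 50 bp reads, per the submitters' processing notes. The strand setting and annotation of the counting are not given in the sources used here. Genes received 26% to 28.5% of all reads in the files, and tallies of unassigned reads were left out of library sizes.

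Groups were compared with edgeR (version 4.0.16) (with limma, version 3.58.1, under R, version 4.3.3). The model gave each group its own mean and was fitted to all libraries together, after filterByExpr with a minimum count of 10 (13796 symbols left of 28262 with a count and 48321 in all), TMM scaling and the quasi-likelihood fit of the newer method. Two-sided F-tests were adjusted by the Benjamini-Hochberg method at 0.05, with no fold threshold. With 2 libraries against 2, the smallest p of an exact permutation test is 0.333, and no such test was run. Exon lengths came from GENCODE M21 and promoters from RefSeq. The script steps were tested on simulated data.

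All 10 genes were tested in every comparison. Where a comparison names only some of them, the rest were not called by edgeR's quasi-likelihood test. Of each pathway list, the up to 3 called genes of lowest p-value are named, with any copy or overlapping gene needed to read a member, and the 3 genes most correlated with Bcl2, Bcl2l11 and Mcl1. Some results that need withheld items are not reported here. The members and lists were chosen with earlier results of these data known.

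Alternatives were no filter, RLE factors, DESeq2 (version 1.42.0), the likelihood ratio test, the legacy quasi-likelihood method, a threshold of 0.01, only the groups compared, blocking on the replicate number or on the mouse, and each library or WT replicate 1 left out. Further alternatives chosen after seeing the data were WT replicate 2 or either KO mouse left out and the Bcl2a1 copies summed. Libraries of a mouse, paired by the number in their titles, deviated together from their group means (correlations over genes of 0.303 in WT and 0.421 to 0.445 in KO), whereas WT and KO libraries of the same number gave 0.042 to 0.079. Figures used Python (version 3.11.15), pandas (version 2.3.3) and matplotlib (version 3.10.9).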

Additional observations from a re-analysis of the deposited data

How the results depend on the processing

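The 10 called differences of BCL2 family genes kept their direction in all 160 values under the alternatives and their side of the threshold in 123. Each library left out in turn gave 2 to 4 called members for WT Treg against non-Treg (beside 5.78% to 15.2% of all genes), 0 to 2 for KO-labelled Treg against non-Treg (2.72% to 3.04%), 1 to 3 for FoxP3+CD25- cells against KO-labelled Treg (2.86% to 3.87%) and 0 in the other 5 comparisons. With WT replicate 1 or 2 left out, WT Treg against non-Treg gave 2. With either KO mouse left out, KO-labelled Treg against non-Treg gave 0, and FoxP3+CD25- cells against KO-labelled Treg gave 1, where 0.75% or 0.715% and 1.36% or 0.805% of all genes were called. In these fits a lone library of a group was assumed to vary like the others. At a threshold of 0.01, each of these KO-labelled comparisons gave 1. For FoxP3+CD25- cells against KO-labelled non-Treg, the likelihood ratio test gave 2 and the summed Bcl2a1 copies 1. With the replicate block for the mouse the counts were 3 for that comparison, 6 for FoxP3+CD25- cells against KO-labelled Treg and 1 for the interaction, and Pmaip1 was added for KO-labelled Treg against non-Treg. The block changed no other call of the 10 genes in the comparisons within mice. The cause of these changes was not tested. With 2 mice per genotype the intervals are wide, and for Bcl2a1b, Bcl2l14 and Bcl2l15 the low counts limit the precision further. The WT mice differed in Xist. The comparison of genotype labels has no pairing, and Satb1 counts did not check the labels.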
